A study of Ovis aries with 16 samples.

Results

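The miR-329 to miR-381 block is a run of small regulatory RNAs in the middle of an imprinted region of sheep chromosome 18. The block was defined by name, as every known sheep row of miR-329 (a and b), miR-494, miR-1193, miR-543, miR-495, miR-381, miR-487 (a and b), miR-539, miR-544 and miR-655, on either arm of the hairpin. Of these 12 named miRNAs, 8 had a row, which makes 8 of the 271 miRNAs listed (103 known and 168 predicted). The rows were oar-miR-329b-3p, oar-miR-494-3p, oar-miR-543-3p, oar-miR-495-3p, oar-miR-381-3p, oar-miR-487b-3p, oar-miR-655-3p and oar-miR-487a-3p, so each member was measured on its 3p arm. miR-329a, miR-1193, miR-539 and miR-544 were not analysed here.

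The data came from the testis of 16 adult Merino males, with 1 small RNA library per male. Both groups were kept in individual pens on oaten chaff and lupin grain for 65 days. The 8 well-fed males were given enough for a target change in body mass of 10%, and the 8 underfed males were restricted for a target of -10%. The right testis was used as whole tissue, so a lower level could come from fewer cells of a type or from less RNA per cell, and these cannot be told apart.

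A miRNA is cut from a hairpin precursor, and it guides a silencing complex to messenger RNAs that pair with its seed, the bases near its 5′ end. The region, known as the Dlk1-Dio3 or callipyge locus, is imprinted in mammals: its large miRNA cluster is expressed from the chromosome inherited from the mother, and a mutation in it causes the muscle overgrowth of callipyge sheep. miRNAs of the cluster are known mainly from brain, muscle, placenta and stem cells. Imprinting itself, or the parental origin of any read, was not measured in these libraries.

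In the RefSeq annotation of the sheep assembly ARS-UI_Ramb_v3.0, all 12 named genes matched, on chromosome 18. Their order was MIR329B, MIR329A, MIR494, MIR1193, MIR543, MIR495, MIR381, MIR487B, MIR539, MIR544, MIR655 and MIR487A. There were 22 miRNA genes from the first to the last of them, and 10 of these, among them the miR-376 genes between MIR495 and MIR381, were not members. All 12 named genes lay inside the annotated span of LOC105606646, which RefSeq classes as protein coding. Coordinates are not given because the reads were mapped by the authors to another assembly, Oar 3.1. Whether each hairpin lies in an exon or an intron was not analysed here.

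Levels are CPM, the reads of a miRNA per 1000000 miRNA reads of its library. The value of 1 read in each library was recovered from the lowest CPM values, and miRNA totals were 17163 to 503916 reads in well-fed males and 27797 to 1058985 in underfed males (medians 294247 and 532446). Well-fed replicate 5 and underfed replicates 6 and 8 held fewer than 100000 miRNA reads, and 1 read was worth 58.3, 36.0 and 19.96 CPM in them. A member with 0 reads in these 3 males could therefore still have had up to 175, 108 or 59.9 CPM, the level of 3 reads. Results are given for all 16 males and, because of these libraries, also for the other 13 (7 well-fed and 6 underfed). The ratio of miRNA to piRNA reads was 0.355 to 0.908 in well-fed and 0.517 to 3.13 in underfed males, and its part in the results below was not tested. Of the tissue markers, smooth-muscle miR-143 ranged from 150264 to 207461 CPM in well-fed and from 133410 to 211940 in underfed males. miR-200a and miR-200b of duct epithelium summed to 11.4 to 58.3 CPM and 15.6 to 79.8 CPM. Muscle miR-133, the single row of its list, had 117 to 807 CPM in well-fed and 369.3 to 764 CPM in underfed males. No known row was listed for the blood, gonadal somatic or late germ cell markers, but several predicted rows are given in the supplement of the study as homologues of markers. Among them candidate-miR-30, candidate-miR-31 and candidate-miR-161 are homologues of miR-34b, miR-34c and miR-449a, which mark late germ cells. These 3 rows summed to 47497 to 71079 CPM in well-fed males, against 10978 to 58155 CPM in the underfed group. By limma, with the Benjamini-Hochberg adjusted p as FDR, candidate-miR-31 (log2 fold change -0.90, FDR 0.0257) and candidate-miR-161 (-0.78, FDR 0.0257) were lower in underfed males, and candidate-miR-30 was at -0.80 (FDR 0.0933), while with miRNAs and piRNAs scaled together the values were 0.05, 0.18 and 0.16. Over the other 13 males all 3 had an FDR under 0.05, with log2 fold changes from -1.10 to -0.99. The predicted homologue of the blood marker miR-486, candidate-miR-132, ranged from 2336 to 7829 CPM in well-fed males and from 1372 to 8546 CPM in the underfed group (FDR 0.735). The homologue of smooth-muscle miR-145, candidate-miR-90, was at 0.62 (FDR 0.151) over 16 males and at 0.87 (FDR 0.0197) over the 13. Those of miR-141, miR-429 and miR-133 had log2 fold changes of 0.66 to 0.81 and an FDR of 0.523 to 0.594 over 16 males. Over the 13 these were 0.95 to 1.28 (FDR 0.0836 to 0.132). The known rows of miR-200a and miR-200b were at 0.88 and 1.17 over 16 males (FDR 0.292 and 0.378). Known miR-143 and miR-133 were at 0.52 and 0.51 (FDR 0.112 and 0.301). With miRNAs and piRNAs scaled together, candidate-miR-90 was at 1.58 (FDR 0.00676) and candidate-miR-132 at 0.75 (FDR 0.130). The homologues of miR-141, miR-429 and miR-133 were then at 1.34 to 1.45 (FDR 0.0866 to 0.121). piRNAs, the small RNAs of germ cells, were read in every library.

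Summed over its 8 members, the block was a small part of the miRNA pool, between 0.0133% and 0.0420% of miRNA reads, and its level relative to all miRNA reads was lower in underfed males. The 8 well-fed males had from 268 to 419.8 CPM, with a median of 394. The 8 underfed males had from 133 to 359 CPM, with a median of 146. Only underfed replicate 8, at 359 CPM from 18 reads, lay within the well-fed range, and the other 7 underfed males lay below the lowest well-fed male. Well-fed males averaged 364 ± 62.2 CPM and underfed males 179 ± 76.0 CPM (SD, n = 8 each), a ratio of 0.492. In the 13 deeper libraries the groups did not overlap in CPM (268 to 419.8 against 133 to 194), with a ratio of 0.423. The sums were not scaled by the TMM factors used for the tests below, whose medians were 1.15 in well-fed and 0.802 in underfed males. Dividing by these factors would narrow the difference. Underfed replicate 7 (178 CPM, factor 0.703) would then lie above well-fed replicate 7 (268 CPM, factor 1.08), so the deeper groups would overlap. No test was made of the summed level. Before TMM scaling, the sum of the late germ cell rows was also below the lowest well-fed male in 7 of 8 underfed males. The exception, at 58155 CPM, was again underfed replicate 8. Among well-fed males the order differed: replicate 3 had the lowest germ cell sum (47497 CPM) and 416 CPM of the block. Well-fed replicate 4 had 69549 and 270 CPM. The part of the germ cell rows in the levels of the block was not tested. When miRNA and piRNA reads together formed the denominator, the sums were 131 ± 19.3 and 109 ± 45.9 reads per 1000000 (SD, n = 8 each) and the ratio was 0.830. With only the known miRNA reads as the denominator it was 0.463. The 95% Wilson intervals of the shallow libraries were wide, 160 to 763 CPM for well-fed replicate 5, 56.0 to 370 CPM for underfed replicate 6 and 227 to 567.9 CPM for underfed replicate 8. They cover counting error only, because amplified reads are not independent molecules.

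**Figure D1:**
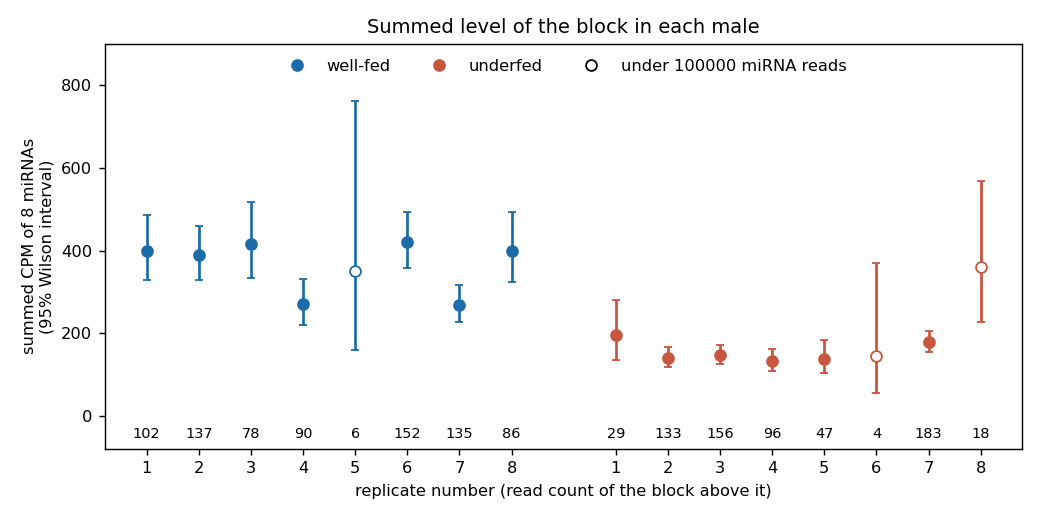
Summed CPM of the 8 block miRNAs in each male by replicate number, with 95% Wilson intervals. The vertical axis is reads per 1000000 miRNA reads, without TMM factors. The number of reads behind each point is printed under it, and open circles are the 3 libraries under 100000 miRNA reads. Well-fed males lie between 268 and 419.8 CPM and underfed males between 133 and 359 CPM, with underfed replicate 8 the single underfed point inside the well-fed range; with piRNA reads added to the denominator the ratio of the means is 0.830 in place of 0.492.

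Each member was then compared between diets with limma on log2(CPM + 1), after scaling of the libraries by TMM factors. A miRNA was called differentially expressed (DE) where the Benjamini-Hochberg adjusted p (FDR) over all 244 tested miRNAs was under 0.05 and FC, the ratio of mean CPM in underfed to well-fed males, was under 0.67 or above 1.5. FC and the CPM values of each member were taken before TMM scaling, and the log2 fold changes after it. FC therefore lay lower than it would after TMM scaling, which favours calls of lower over higher. It is also a ratio of arithmetic means, and it lay above the modelled change for miR-494-3p, miR-495-3p and miR-655-3p. All 8 members had over 5 CPM in at least 8 libraries and were tested. None of the 8 was DE, against 8 of 244 tested miRNAs (3.28%), of which 6 (2.46%) were lower and 2 higher in underfed males. Without the FC limits, 28 of all 244 were lower and 35 higher at an unadjusted p under 0.05 by limma. An FDR under 0.05 was reached by 15 of the 244, and all of those that the FC limits removed were higher in underfed males. The split of all DE calls depended on the scaling, with 36 lower and 0 higher without TMM factors and 60 higher and 0 lower when miRNAs and piRNAs were scaled together. At an unadjusted p under 0.05, miR-494-3p and miR-381-3p were lower, 2 of 8 members against 11.5% of tested miRNAs. By their modelled log2 fold changes all 8 were below 0, against 52.9% of tested miRNAs, while with both classes scaled together 3 of 8 were. The median of the members was -0.85, against -0.08 over all 244. Scaling both classes together moved these medians to 0.10 and 0.81, and each of the 8 members then also lay below the median of all.

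In the 13 deeper libraries, miR-487b-3p and miR-494-3p were DE and lower, 2 of 8 members, where 8.5% of 247 tested miRNAs were DE and lower. The direction of miR-655-3p differed there, with a modelled log2 fold change of 0.18. Voom on the recovered reads of all 16 males called miR-494-3p alone (background 9.43%). Without TMM factors miR-494-3p and miR-381-3p were called (background 14.8%), and the same 2 were called with log2 of the miRNA reads as a covariate (background 6.56%). With miRNAs and piRNAs scaled together no member was DE or had an unadjusted p under 0.05.

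**Figure D2:**
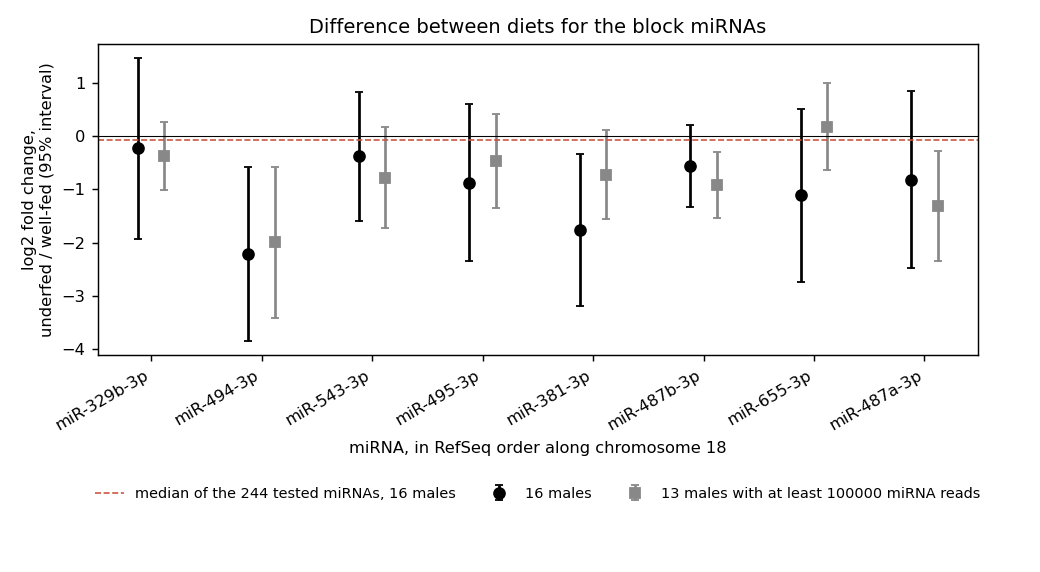
Modelled log2 fold change (underfed over well-fed, vertical axis) of the 8 block miRNAs in their RefSeq order, with 95% intervals, from all 16 males (black circles) and from the 13 males with at least 100000 miRNA reads (grey squares); the dashed line is the median of the 244 tested miRNAs. All 8 circles lie below 0, from -2.21 for miR-494-3p to -0.23 for miR-329b-3p, and the square of miR-655-3p lies above 0; with miRNAs and piRNAs scaled together 3 of the 8 are below 0.

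In well-fed males miR-494-3p, from the third gene of the block in RefSeq order, had from 18.01 to 121 CPM, with a median of 53.4. In underfed males it had from 0 to 39.9 CPM, with a median of 13.5. The groups overlapped: underfed replicates 4 and 8, at 38.8 and 39.9 CPM, lay above well-fed replicate 4, the lowest of its group, and underfed replicates 1 and 6 had 0 reads. The means were 57.6 ± 28.6 and 15.8 ± 16.1 CPM (SD, n = 8 each), and FC was 0.275. The modelled log2 fold change was -2.21 (SE 0.79, 95% interval -3.85 to -0.58), with an unadjusted p of 0.0102 and an FDR of 0.0931 by limma. In the 13 deeper libraries it was -1.99 with an FDR of 0.0466, and by voom -1.34 with an FDR of 0.0427. Leaving out each male in turn gave -2.62 to -1.74 with an FDR of 0.0459 to 0.159. The FDR was under 0.05 in 1 of these 16 fits, without underfed replicate 8, where 5% of tested miRNAs were DE and lower. With both classes scaled together the log2 fold change was -0.95 (FDR 0.337).

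miR-381 is one of the miRNAs of the locus that promote growth of dendrites in active neurons. In well-fed males miR-381-3p had from 11.7 to 58.3 CPM, with a median of 17.2, and the highest value was 1 read of the shallow replicate 5. In underfed males it had from 0 to 13.4 CPM, with a median of 7.57, and both zeros were in the shallow replicates 6 and 8. Underfed replicates 1 and 4, at 13.4 and 12.5 CPM, lay just above the lowest well-fed male, replicate 1. Divided by the TMM factors, underfed replicates 2, 5 and 7 would also lie above it. They had 7.35, 8.74 and 7.78 CPM (factors 0.698, 0.859 and 0.703), against 11.7 CPM (factor 1.27) in well-fed replicate 1. The means were 25.6 ± 16.1 and 6.57 ± 5.19 CPM (SD, n = 8 each), with FC 0.257, from 46 and 32 reads in all. limma gave a log2 fold change of -1.76 (SE 0.69, 95% interval -3.19 to -0.34), with an unadjusted p of 0.0177 and an FDR of 0.117. It was -0.73 (FDR 0.184) in the 13 deeper libraries, -2.16 (FDR 0.0347) without TMM factors, and -0.65 (FDR 0.461) with both classes scaled together. FC in the deeper libraries was 0.419.

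miR-487b had the most reads of the block, 300 in well-fed and 200 in underfed males. miR-487b-3p ranged from 58.3 to 216 CPM in well-fed males, with a median of 136.5, and from 22.7 to 120 CPM in underfed males, with a median of 54.0. The lowest well-fed value was the single read of replicate 5, and the highest underfed value was that of the shallow replicate 8, at 119.8 CPM. The groups overlapped. Before TMM scaling, 5 of the 6 deeper underfed libraries lay below the lowest of the 7 deeper well-fed ones. Replicate 1, at 93.9 CPM, did not. Divided by the TMM factors, underfed replicates 2, 5 and 7 would also lie above the lowest well-fed one. They had 49.3, 55.4 and 52.5 CPM (factors 0.698, 0.859 and 0.703), against 69.5 CPM (factor 1.08) in well-fed replicate 7. How often other miRNAs separate in this way was not analysed here. Over all 16 males the means were 131 ± 55.8 and 64.1 ± 30.4 CPM (SD, n = 8 each), with FC 0.491. The modelled log2 fold change was -0.56 (SE 0.37, 95% interval -1.33 to 0.20), and the FDR by limma was 0.338. In the deeper libraries the means were 141 ± 51.3 (n = 7) and 53.5 ± 23.0 CPM (n = 6), with FC 0.379, a log2 fold change of -0.92 and an FDR of 0.0379 by limma. With both classes scaled together the value was 0.37 (FDR 0.511), above 0.

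miR-487a-3p, from the last gene of the block and related in sequence to miR-487b, had the fewest reads, 46 in well-fed and 27 in underfed males. It ranged from 0 to 38.7 CPM in well-fed males, with a median of 15.1, and from 0 to 39.9 CPM in underfed males, with a median of 4.99. The highest underfed value was 2 reads of the shallow replicate 8, and the next was 11.7 CPM. The groups overlapped. Before TMM scaling, 5 of the 6 deeper underfed libraries lay below the lowest deeper well-fed one. Divided by the TMM factors, underfed replicate 2 (5.25 CPM, factor 0.698) would also lie above it. That lowest one was well-fed replicate 1 (7.83 CPM, factor 1.27). The modelled log2 fold change was -0.82 (SE 0.80, 95% interval -2.47 to 0.84), with an FDR of 0.531 by limma and FC 0.507. In the deeper libraries it was -1.31 (FDR 0.0713) with FC 0.266, and with both classes scaled together it was 0.0024 (FDR 0.997).

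The level of miR-487a-3p was also set against miR-487b-3p in each male, the single pair of paralogues with both rows. A ratio inside a library cancels the scaling, except that 1 CPM was added to each level before the log. With few reads the ratio therefore still depends on the CPM worth of 1 read. The log2 ratio was from -5.89 to -1.25 in well-fed males and from -6.19 to -1.56 in underfed males, and both lowest values came from shallow libraries with 0 reads of miR-487a-3p. The means were -3.21 ± 1.47 and -3.34 ± 1.51 (SD, n = 8 each), a difference of -0.13 for underfed minus well-fed males (exact permutation test, two-sided, p = 0.860). In the 13 deeper libraries the difference was -0.34 (exact permutation p = 0.552). It was smaller than the spread between males in both. Reads that match both paralogues could be assigned to either, and how the authors assigned them is not given in the sources used here.

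miR-495 is known to target the neurotrophin BDNF. miR-495-3p had from 17.04 to 58.6 CPM in well-fed males, with a median of 35.5, and from 0 to 79.8 CPM in underfed males, with a median of 19.7. The underfed group spanned the whole well-fed range, with both its ends in the shallow replicates 6 and 8. The means were 37.7 ± 14.4 and 24.2 ± 24.9 CPM (SD, n = 8 each), with FC 0.642. Its modelled log2 fold change was -0.87 (95% interval -2.34 to 0.59) with an FDR of 0.448 by limma, and 0.19 with both classes scaled together. Without the shallow libraries the means were 34.7 ± 12.7 (n = 7) and 18.9 ± 10.1 CPM (n = 6), with a log2 fold change of -0.47 (FDR 0.436).

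miR-329, like miR-381, is known from dendrite growth in neurons. miR-329b-3p had from 0 to 58.6 CPM in well-fed males, with a median of 29.8, and from 0 to 39.9 CPM in underfed males, with a median of 18.5. The zeros were in the shallow well-fed replicate 5 and underfed replicate 6. Without the shallow libraries the ranges were 24.0 to 58.6 and 14.6 to 28.2 CPM, and only underfed replicate 7 reached into the well-fed range. These values were not scaled by the TMM factors. Divided by them, underfed replicates 2 and 3 (16.8 and 20.8 CPM, factors 0.698 and 0.790) would also reach into it. Well-fed replicate 8 (27.8 CPM, factor 1.26) would be the lowest of its group. The unscaled means without the shallow libraries were 36.6 ± 12.9 (n = 7) and 19.3 ± 5.05 CPM (n = 6). The modelled log2 fold change was -0.23 (SE 0.82, 95% interval -1.93 to 1.46) over 16 males, with an FDR of 0.877 by limma. It was -0.38 (FDR 0.379) in the deeper libraries. It turned to 0.30 without underfed replicate 6 and to 0.61 with both classes scaled together.

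miR-543 is known to target the deacetylase SIRT1. miR-543-3p was, with miR-487b-3p, one of 2 members read in every library. It had from 23.2 to 58.3 CPM in well-fed males, with a median of 25.7, and from 1.39 to 72.0 CPM in underfed males, with a median of 15.8. The highest value in each group was that of a shallow library, 1 read of well-fed replicate 5 and 2 reads of underfed replicate 6. Of the deeper libraries, underfed replicate 1, at 33.5 CPM, was the single underfed male not below the lowest well-fed male. By limma the log2 fold change was -0.38 (95% interval -1.60 to 0.83) with an FDR of 0.677. It was -0.78 (FDR 0.206) in the deeper libraries and 0.49 with both classes scaled together.

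miR-655 is known to target ZEB1, a factor of epithelial-to-mesenchymal transition. miR-655-3p had from 9.27 to 58.3 CPM in well-fed males, with a median of 23.7, and from 0 to 29.3 CPM in underfed males, with a median of 18.8. Both zeros were in the shallow underfed replicates 6 and 8, and the other 6 underfed males, at 8.31 to 29.3 CPM, overlapped the lower part of the well-fed range. The modelled log2 fold change was -1.11 (SE 0.78, 95% interval -2.74 to 0.51) with an FDR of 0.375 by limma. Without the shallow libraries it was 0.18 (FDR 0.767, 95% interval -0.64 to 0.99), above 0, although FC was 0.781. By voom it was 0.017.

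**Figure D3:**
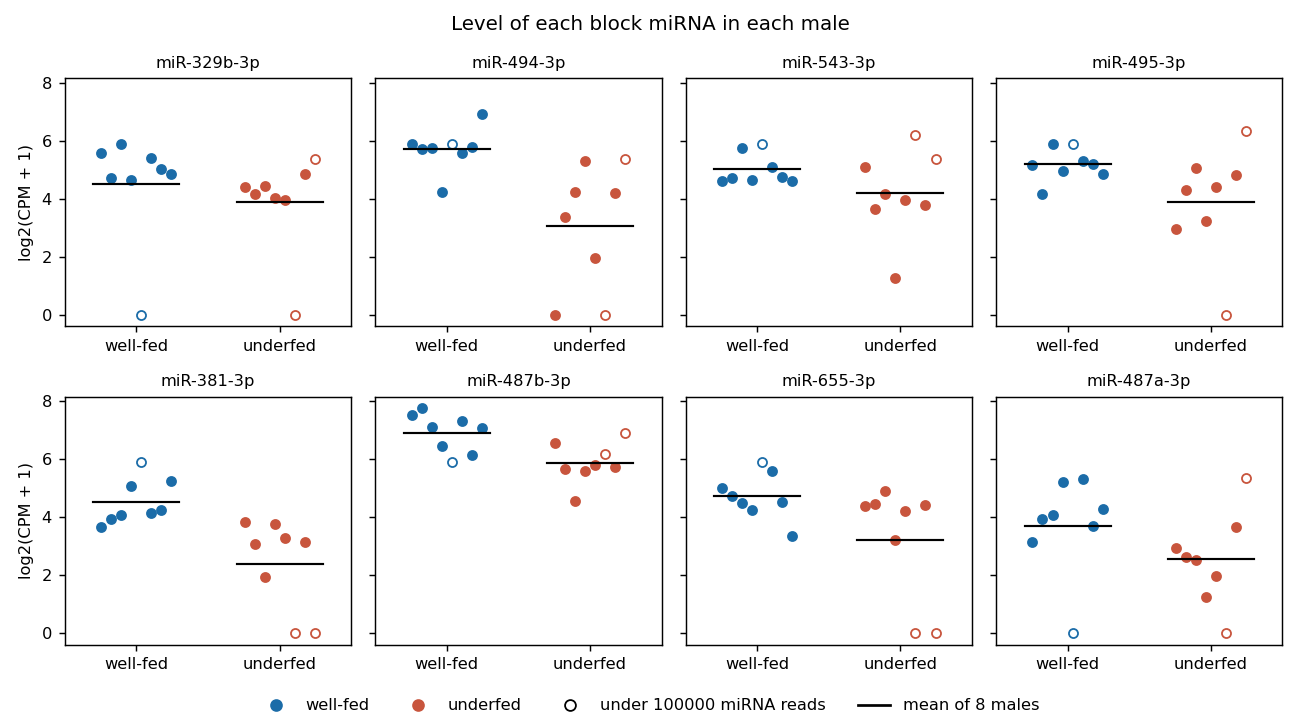
Level of each block miRNA, as log2(CPM + 1) of the deposited values, in each of the 8 well-fed and 8 underfed males; the bar is the mean of the 8 plotted values and open circles are the 3 libraries under 100000 miRNA reads. Most zeros and several of the highest points are open circles, and in each panel the groups overlap.

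miR-487b-3p led the members in both diets. In the deeper libraries of well-fed males the mean levels ran from 141 CPM for miR-487b-3p through miR-494-3p (57.5 CPM), miR-329b-3p, miR-495-3p, miR-543-3p, miR-655-3p and miR-381-3p to 20.5 CPM for miR-487a-3p. In the deeper libraries of underfed males the order was miR-487b-3p (53.5 CPM), miR-655-3p (19.4 CPM), miR-329b-3p, miR-495-3p, miR-543-3p, miR-494-3p, miR-381-3p and miR-487a-3p (5.44 CPM). Only the step from miR-487b-3p to the next member was larger than the SD between males, at 1.63 and 1.48 times the larger SD of the pair. The other neighbours in each order did not differ beyond their spread. miR-494-3p was second in well-fed males and sixth in underfed males, which is a description of means and was not tested. Among the 103 known miRNAs, miR-487b-3p ranked 51 by mean level and miR-487a-3p ranked 84. These are read levels, and ligation and amplification of different miRNAs may not be equally efficient.

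Levels of the members were weakly related to each other across males. Over the 13 deeper libraries and with the diet means subtracted, the Spearman correlation over the 28 pairs of members had a median of 0.15 (all pairs of tested miRNAs, 0.033). Of the 28 member pairs 19 were above 0, against 15690 of the 29646 pairs of all tested miRNAs. Among members the correlation was highest for miR-329b-3p with miR-495-3p, at 0.73, and lowest for miR-381-3p with miR-655-3p, at -0.55. These values share libraries and depth, and members have few reads, so they are given as a description. The 5 non-member miRNAs whose levels followed the mean of the members most closely over 16 males were candidate-miR-192, candidate-miR-146, candidate-miR-63, oar-miR-382-5p and candidate-miR-163, with Spearman correlations of 0.59 to 0.63. Candidate numbers are predicted miRNAs, and miR-382 belongs to the distal end of the same locus. In the 13 deeper libraries their correlations were 0.42 to 0.70, the highest for candidate-miR-63.

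The medians of the other blocks of the imprinted locus were also below 0, except with both classes scaled together. Of 46 known rows in the 4 other blocks, 39 were tested and 33 had modelled log2 fold changes below 0, with a median of -0.67, 3 of them DE and lower. The median was -0.52 in the early block (miR-493 to miR-136, 6 tested), -0.77 in the proximal block (miR-379, miR-411 and neighbours, 11 tested), -0.52 in the miR-376 block (8 tested) and -0.71 in the distal block (miR-382 to miR-410, 14 tested). Among the 197 tested miRNAs outside these lists, 88 were below 0 and the median was 0.10. The median of the miR-329 to miR-381 block, -0.85, was the lowest of the 5 blocks in this fit, and the difference from the others was not tested. In the 13 deeper libraries the miR-376 and distal blocks, at -0.88 and -0.87, were lower than the block, at -0.76. With miRNAs and piRNAs scaled together the medians were 0.10 for the block, 0.17 to 0.37 for the other 4 and 1.00 outside the lists. The block had the lowest summed level of the 5, with 364 CPM in well-fed males against 931 CPM for the miR-376 block and 7576 CPM for the early block. Among the 8 DE miRNAs the lowest p was that of the miR-34c homologue candidate-miR-31, not a member, with means of 44970 and 19776 CPM in well-fed and underfed males (FC 0.440). The log2 fold change was -0.90 (SE 0.22, FDR 0.0257 by limma), and 0.05 with miRNAs and piRNAs scaled together.

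**Figure D4:**
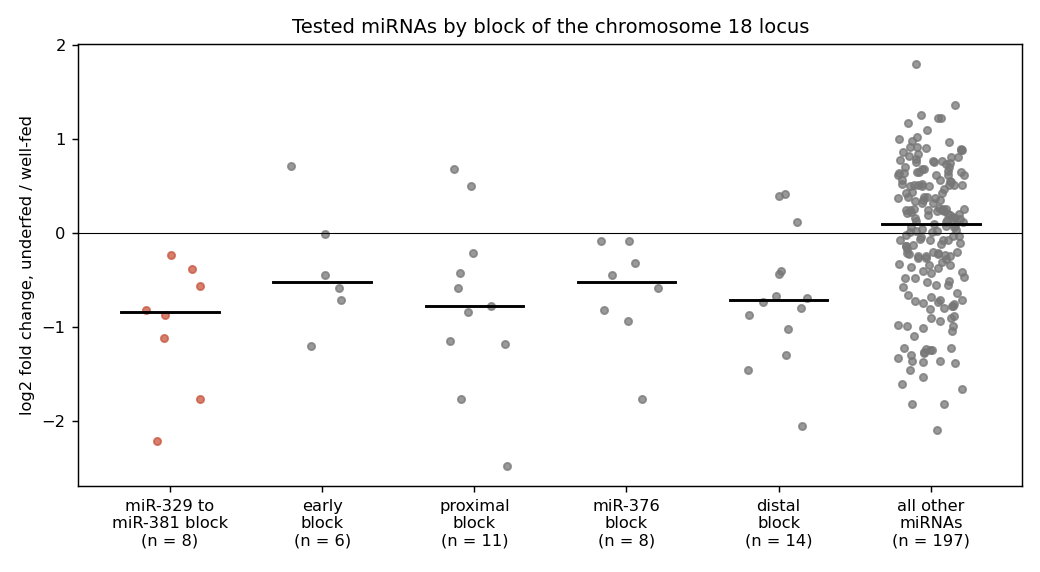
Modelled log2 fold change (underfed over well-fed, vertical axis) of each tested miRNA, by block of the chromosome 18 locus and for all miRNAs outside the lists, from all 16 males; horizontal bars are medians. The 8 members lie between -2.21 and -0.23 around a median of -0.85, and the 197 miRNAs outside the lists lie around 0.10; with miRNAs and piRNAs scaled together these medians are 0.10 and 1.00.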

How the data were processed

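Testis small RNAs of 16 males, 8 per diet, were sequenced by the authors after TruSeq small RNA preparation. Base calling used CASAVA 1.8, per the labels. The authors trimmed adaptors, discarded matches to other RNA classes, and counted reads of 18 to 25 nt on known miRNA precursors and on precursors predicted with miRDeep2 from Oar 3.1. The deposited values are CPM in which miRNAs and piRNAs were each divided by their own class total, so a column sums to about 2 times 1000000; this unit was treated as neither counts nor a plain CPM column. Groups and replicate numbers came from the sample labels.

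The value of 1 read was recovered per library. Within 0.01 reads, 92.5% to 97.6% of low miRNA values were whole, and 98.7% to 100% were multiples of 0.5 reads. Recovered reads gave depths, weights and intervals; 3 reads (0.000283% to 0.0175% of miRNA reads) were the floor. TMM factors (30% of log ratios and 5% of abundances trimmed, own implementation) were 1.08 to 1.39 in well-fed and 0.698 to 1.26 in underfed males. limma 3.58.1 in R 4.3.3 was fitted to log2(CPM + 1) with a trended empirical Bayes prior, for 244 miRNAs above 5 CPM in at least 8 of 16 libraries, with Benjamini-Hochberg adjustment. The count-based test of the authors was not repeated as the main test, because the files hold CPM. Ratios were compared by exact permutation over 12870 arrangements (scipy 1.17.1, Python 3.11.15). The steps were tested on simulated data. Each male was 1 library, with no technical repeats.

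The alternatives were no TMM factors, joint scaling of miRNAs and piRNAs, no filter, pseudocounts of 0.1 and 5 CPM, the replicate block, log2 miRNA reads as a covariate, only libraries of at least 100000 miRNA reads, voom on recovered reads, other denominators, and each male left out.

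All 8 members are named, with the 5 non-member miRNAs most like their mean, the DE miRNA of lowest FDR and p, and the other blocks by counts. Predicted rows paired with cell type markers by the homologues of the study were added after the data were seen. The members and lists were chosen with earlier results of these data known. Mature sequences and seeds are not printed, since no sequence table was used here. piRNA differences, cell death staining and target assays were not analysed here.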

Additional observations from a re-analysis of the deposited data

Results flagged for a closer look

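In 4 of 20 groups examined (each member and the summed level in each diet, plus the ratio of miR-487a-3p to miR-487b-3p in each diet), 1 male lay far from the other 7, with a gap to its nearest neighbour above 0.526 of the range of its group. About 1 in 20 independent groups of normally distributed values would pass that limit. The groups here share males and hold levels from few reads, so this rate need not apply to them. miR-487a-3p in underfed replicate 8 was 39.9 CPM, from 2 reads, and the nearest other male had 11.7 CPM. miR-495-3p in the same male was 79.8 CPM, from 4 reads, against 32.1 CPM in the nearest. The summed level of the block in that male was 359 CPM against 194 CPM. These 3 values are of 1 shallow library and are not independent. miR-494-3p in well-fed replicate 8, a deeper library, was 121 CPM, from 26 reads, against 58.7 CPM in the nearest male.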

How the results depend on the processing

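The 8 DE miRNAs of all those tested became 36 without TMM factors, 60 with joint scaling of miRNAs and piRNAs, 18 with the depth covariate, 25 in the 13 deeper libraries and 26 by voom, and 0 to 22 when 1 male was left out. The lowest, 0, was without well-fed replicate 2 or 8 and the highest without underfed replicate 1; only without well-fed replicate 4 or 7 or underfed replicate 6 was the count within 1.5 times the reported 8. DE members numbered 2 without TMM factors, 2 with the covariate, 2 in the deeper libraries, 1 by voom and 0 to 1 with 1 male left out (1 without underfed replicate 8). Members with an unadjusted p under 0.05 numbered 0 with joint scaling and 4 by voom, and members below 0 numbered 3 with joint scaling. Of 200 member values under alternatives, 184 kept their direction and side of the threshold, 8 passed it and 8 changed sign. The sign changed with joint scaling for miR-329b-3p (0.61), miR-487a-3p (0.0024), miR-487b-3p (0.37), miR-495-3p (0.19) and miR-543-3p (0.49), in the deeper libraries (0.18) and by voom (0.017) for miR-655-3p, and for miR-329b-3p with 1 male left out (-0.85 to 0.30). The difference in log2 ratio of miR-487a-3p to miR-487b-3p was 0.18 at a pseudocount of 5 CPM and -0.51 to 0.28 with 1 male left out. The FC of the summed block was 0.830 over miRNA and piRNA reads. The cause of these changes was not tested.

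With the replicate block 7 miRNAs were DE (1 higher, 6 lower), no member was, and the ratio difference was -0.13 (exact sign-flip p = 0.867); it changed no call of a member. No pairing of the males by number was seen, although 8 pairs cannot exclude a weak one. Deviations of same-numbered males correlated at 0.0472 on average, and 3 of 8 pairs exceeded 0.1. Not every male correlated best with its own number, the highest value being 0.277 within and 0.399 across numbers.

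Depth limits the block: miR-487a-3p rests on 46 and 27 reads per diet and miR-381-3p on 46 and 32. The 95% intervals of 6 of the 8 log2 fold changes included 0, a share near that of all tested miRNAs. An unadjusted p under 0.05 by limma was reached by 2 of 8 members and by 63 of 244 tested miRNAs.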
